A study of Drosophila melanogaster with 3 samples.

Results

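The peaks of GFP-tagged Rel were described at Rabex-5, at 4 Rab GTPase genes of the endosome (Rab5, Rab7, Rab4 and Rab11) and at the Ras gene Ras85D. These 6 genes, of 13945 annotated protein-coding genes, were chosen by name, with Rabex-5 picked for the height of its peak in these data. Every peak summit (the base of highest signal in a peak) within 5000 bp of each gene was listed. This gave 23 of the 9419 summits in the authors' optimal list, which is the set kept for reproducibility between replicates. Because the genes were chosen from these signals, the values are a description and no test was made on them.

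The samples are 3 biological replicates of 1 group of Drosophila melanogaster. They are whole larvae in the wandering phase of the third instar, males and females pooled, age unknown, of the strain named Rel. This transgenic line stably expresses GFP fused to the N-terminus of Rel (Rel-eGFP), and chromatin was precipitated with an antibody against GFP. The labels name no promoter or driver for the fusion. No second condition was present, and a control named in the labels was not analysed here as a library of its own. The libraries hold every tissue of the larva, so Rel in few cells and less Rel per cell cannot be told apart.

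Rel (Relish) is an NF-κB factor activated by the fly's IMD immune pathway, and NF-κB factors bind short G- and C-rich sequences called κB sites. Rab proteins are small GTPases that give each endosomal membrane its identity when they carry GTP, and exchange factors load them with it. Rab5 marks early endosomes, Rab7 late endosomes, Rab4 the fast recycling route and Rab11 recycling endosomes. Rabex-5 is an exchange factor for Rab5 and also a ubiquitin ligase, which in Drosophila acts on Ras85D, the GTPase that starts the MAPK cascade.

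Sequence under the strongest peak close to a transcription start site (TSS) is shown for 5 of the genes, because that of Rabex-5 held a κB match and the others did not. Each run is taken from the RefSeq release 6 sequence (build dm6) and reads 5′ to 3′ on the strand of the gene. It covers up to 100 bp on each side of the summit. A run is cut where untranslated exon sequence of the gene, or of the divergent gene Epp in the case of Rab7, begins. The Rab5 and Rab11 runs lie in introns, so inside the transcribed gene. Capitals mark the κB site at Rabex-5, the E-box CACGTG at Rab5, and the DNA replication-related element (DRE) TATCGATA at Rab7. At Rab11 and Ras85D, where none of these was found, the single capital marks the summit base.
Rabex-5 (chr3L:1295745-1295912, plus strand): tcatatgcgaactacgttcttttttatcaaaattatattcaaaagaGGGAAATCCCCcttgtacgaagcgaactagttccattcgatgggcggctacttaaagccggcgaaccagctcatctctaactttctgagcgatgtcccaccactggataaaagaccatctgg
Rab5 (chr2L:2363644-2363844, minus strand): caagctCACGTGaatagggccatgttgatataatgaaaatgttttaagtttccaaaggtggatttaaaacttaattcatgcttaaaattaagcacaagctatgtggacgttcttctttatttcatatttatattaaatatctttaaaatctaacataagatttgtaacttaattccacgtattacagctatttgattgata
Rab7 (chr3R:23992917-23993007, plus strand): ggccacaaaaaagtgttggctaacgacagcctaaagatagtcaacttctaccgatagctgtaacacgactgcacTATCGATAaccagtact
Rab11 (chr3R:21111960-21112160, plus strand): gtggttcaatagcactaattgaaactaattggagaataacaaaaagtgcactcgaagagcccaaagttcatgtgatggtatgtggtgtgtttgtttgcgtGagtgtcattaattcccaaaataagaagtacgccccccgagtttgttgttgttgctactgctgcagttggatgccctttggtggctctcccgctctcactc
Ras85D (chr3R:9513091-9513291, minus strand): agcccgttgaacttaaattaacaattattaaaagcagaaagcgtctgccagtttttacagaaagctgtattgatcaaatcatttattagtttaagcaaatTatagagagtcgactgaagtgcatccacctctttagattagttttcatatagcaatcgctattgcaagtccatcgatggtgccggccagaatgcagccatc

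All 6 genes had an optimal summit within 1000 bp of a TSS, where 37.9% of all protein-coding genes had one. All 6 had a summit of the pooled list at that distance, against 53.6% of all protein-coding genes. The signals at these peaks were far apart. Rabex-5 had a signal of 19468 in the units of the authors' peak caller and was at rank 3 of 9419. Rab5 was at rank 1488, Rab7 at 3070, Rab4 at 3700, Ras85D at 7495 and Rab11 at 8291. The median signal over the 23 summits was 344.2, against 382.5 over all optimal summits, so the set as a whole was not high. Of the 23, 11 had signals in the upper 50% of the list and 5 in the upper 25%.

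**Figure D1:**
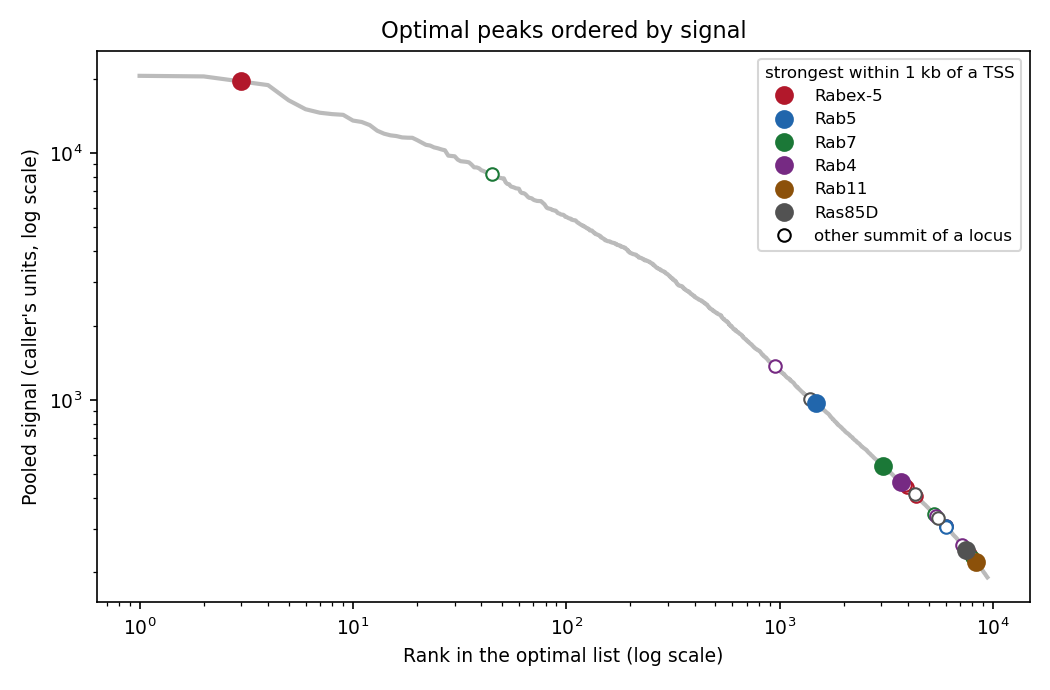
Signal of every optimal peak (caller's units, log scale) against its rank (log scale), as a grey line. Filled points are the strongest peak within 1 kb of a TSS of each gene and open points the other summits within 5 kb, with Rabex-5 at rank 3, an open point of the Rab7 locus at rank 45 and every other point at rank 955 or lower down the list.

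Rabex-5 (FBgn0262937, chr3L:1295913-1298497, plus strand) has a single annotated TSS. The optimal summit lay at position 1295845, 68 bp upstream of it and between genes, in a peak of 977 bp (chr3L:1295389-1296365). The signal was 4507 in replicate 1, 8354 in replicate 2 and 6692 in replicate 3, which placed the peak at ranks 3, 2 and 3 of the 30000 peaks in each list. The summit was at the same base in replicates 1 and 3 and 10 bp away in replicate 2. No other protein-coding TSS lay within 1000 bp, so the peak has a single candidate gene by this distance.

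To compare replicates, each signal was divided by the median signal of that replicate over its peaks matched to optimal summits within 100 bp, and the quotient is called relative signal. At the Rabex-5 promoter it was 37.5 in replicate 1, 62.6 in replicate 2 and 43.4 in replicate 3, or 47.8 ± 13.1 (SD, n = 3). Replicate 2 was the highest. That replicate also gave the highest relative signal at all 10 of the 10 strongest optimal peaks and at 74 of the 100 strongest. The median relative signal over those 100 peaks was 16.9 in replicate 1, 22.3 in replicate 2 and 18.0 in replicate 3, and the part this has in the Rabex-5 value was not tested.

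The promoter peak held 91.3% of the summed optimal signal within 5000 bp of Rabex-5 and was 43.2-fold higher than the next peak there. The locus held 5 more optimal summits. Inside Rabex-5, in coding sequence, a summit at 1297650 was at rank 7785 with relative signals of 0.51, 0.58 and 0.52 in replicates 1, 2 and 3 (mean 0.540 ± 0.038, SD, n = 3). These are all below the median of matched peaks, and the lowest promoter value of 37.5 lies far above them.

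The other summits of the Rabex-5 locus lay at its downstream neighbours. The scf gene, which encodes supercoiling factor, had a summit 33 bp upstream of its TSS (rank 3945, relative signal 1.13 ± 0.15, SD, n = 3) and another in its 3′ UTR (rank 4370). Rac1, a GTPase gene of the actin cytoskeleton, had a summit in its 3′ UTR at 1301615 (rank 3852, 1.14 ± 0.16, SD, n = 3). The promoter shared by Rac1 and Acat2, an acetyl-CoA acetyltransferase gene, had a summit at rank 6013, 91 bp upstream of Rac1 and 170 bp upstream of Acat2. It was matched in replicates 1 and 2 alone, at 0.49 and 1.54, and was the only 1 of the 23 summits not matched in all 3 replicates. Replicate 3 had summits close by, at 1302588 and 1302876, but beyond the 100 bp limit of matching from the optimal summit at 1302774. Over all optimal summits, 90.4% were matched in all 3.

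**Figure D2:**
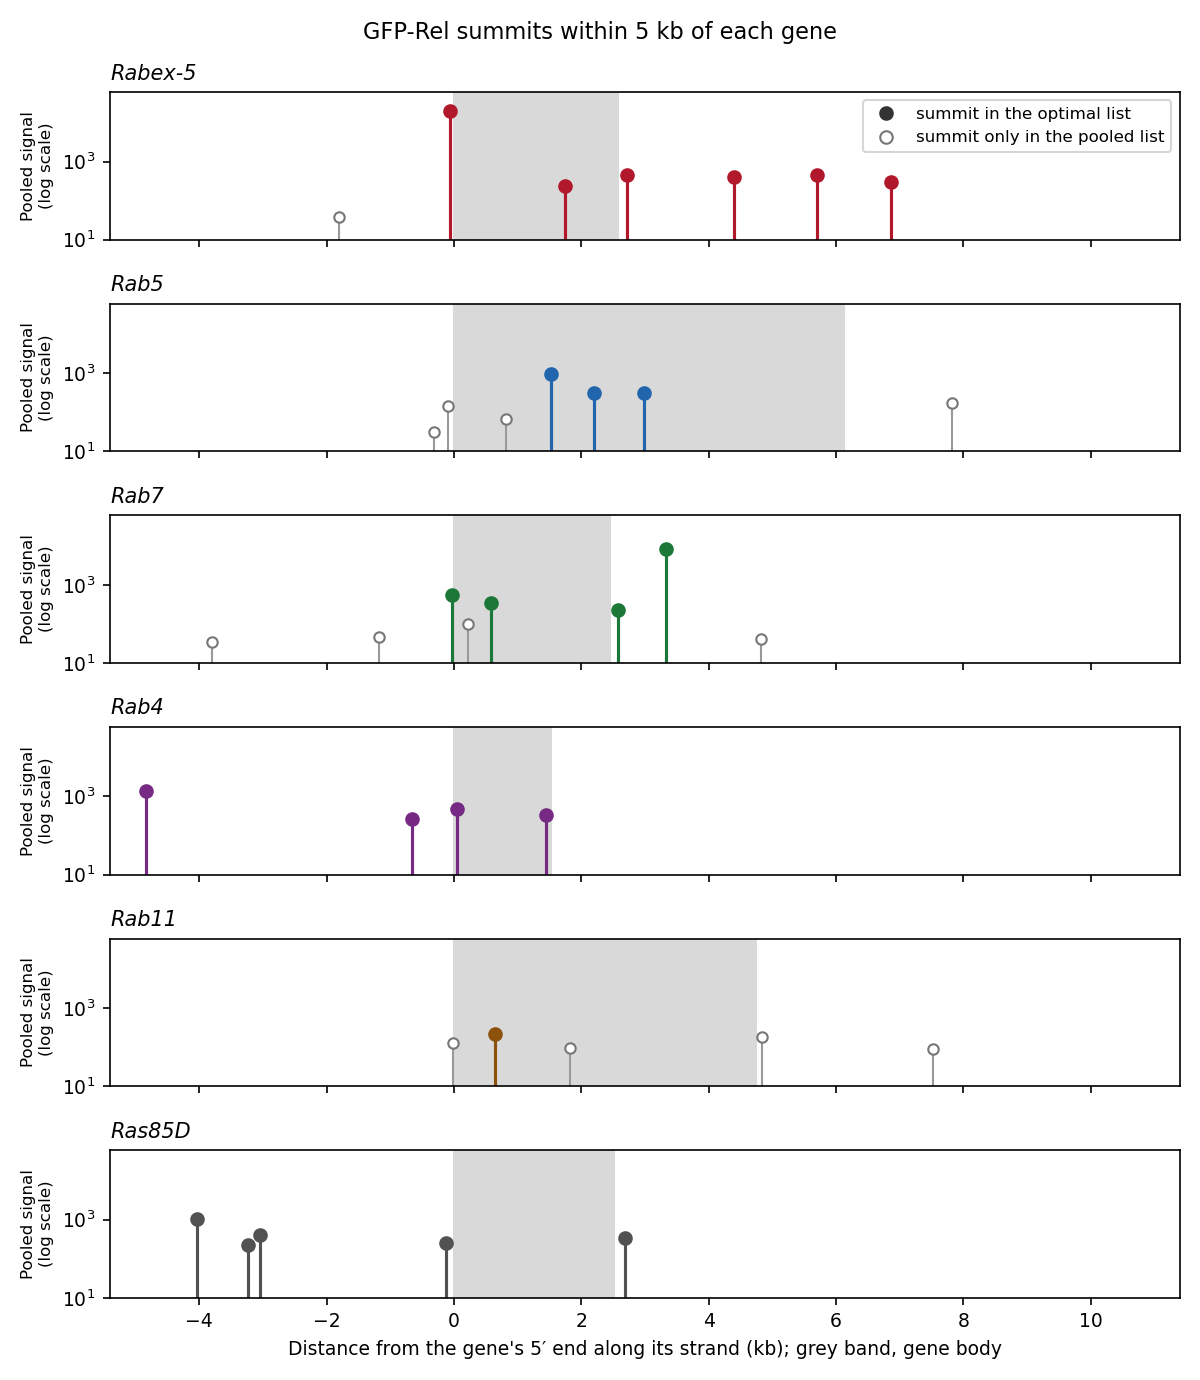
Summits within 5 kb of each gene, drawn by distance from the 5′ end of the gene along its strand (kb), with the signal in the pooled list on a log axis. Filled points are optimal summits and open points are summits of the pooled list alone; the grey band is the gene body. At Rabex-5 the summit next to the start stands alone at 19468, and at Rab7 the highest summit lies past the 3′ end of the gene.

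Rab5 (FBgn0014010, chr2L:2359142-2365273, minus strand) has 6 annotated TSSs, and its 3 optimal summits all lay in introns, upstream of internal TSSs. The strongest, at 2363744, was 240 bp upstream of the TSS of transcript Rab5-RE, with a signal of 968.2. Its relative signal was 3.24 in replicate 1, 1.28 in replicate 2 and 2.68 in replicate 3, or 2.40 ± 1.01 (SD, n = 3). Replicate 2 was the low one here, with the peak at rank 3482 of its list against ranks 970 and 1313 in replicates 1 and 3. The coefficient of variation was 42.1%, above the upper quartile of 34.5% over optimal summits matched in all 3 replicates.

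The other Rab5 summits were weaker. The summit at 2362280, 425 bp upstream of the TSS of Rab5-RI, was at rank 5998 with relative signals of 0.70, 0.64 and 1.00 in replicates 1, 2 and 3. The summit at 2363079, 298 bp upstream of the TSS of Rab5-RA, was at rank 6059 with 0.89, 0.82 and 0.71. All 3 replicates of both were at or below 1.00, whereas all 3 of the strongest Rab5 summit were above it. The pooled list added 4 summits within 5000 bp of Rab5, with signals of 30.6 to 174.5.

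Rab7 (FBgn0015795, chr3R:23993008-23995452, plus strand) had its promoter summit at 23992985, 23 bp upstream of the TSS of Rab7-RA and 69 bp upstream of the divergent gene Epp. The relative signal was 1.24 in replicate 1, 1.48 in replicate 2 and 1.42 in replicate 3, or 1.38 ± 0.12 (SD, n = 3), a coefficient of variation of 9.02%. A second summit of the same 1151 bp peak interval, in an intron and 135 bp upstream of the TSS of Rab7-RB, was at rank 5295 with 1.05, 0.91 and 0.83. The TSS of Epp was 682 bp from this second summit. For the first summit, which lay close to both TSSs, Epp and Rab7 cannot be told apart as the gene it belongs to.

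The highest summit within 5000 bp of Rab7 was not at Rab7. It lay at 23996339, 887 bp past the 3′ end of the gene and 75 bp upstream of the TSS of LSm3-RB. This is also in the 5′ UTR of LSm3, downstream of the TSS of LSm3-RA at 23996262. LSm3 encodes a subunit of the Sm-like protein ring of mRNA decay and splicing. The signal was 8214 (rank 45), with relative signals of 16.0, 26.2 and 18.5 in replicates 1, 2 and 3 (20.2 ± 5.31, SD, n = 3). Every replicate put it above its own value for the Rab7 promoter peak, which had 0.0656 of the pooled signal of this one. The summit is also in a coding exon of CG33108, 680 bp past its TSS. That gene had a summit of its own, 69 bp upstream of its TSS, at rank 8013 (0.42, 0.39 and 0.94). The best rank in the Rab7 locus was therefore that of a peak at a neighbouring gene.

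Of the recycling Rab genes, Rab4 had a peak near the middle of the list, at rank 3700, and Rab11 a low one, at rank 8291. Rab4 (FBgn0016701, chr2R:17573462-17574979, plus strand) had a summit 55 bp downstream of its TSS, in the 5′ UTR, with relative signals of 0.857, 1.42 and 1.18 in replicates 1, 2 and 3 (1.15 ± 0.28, SD, n = 3). A summit in its 3′ UTR was at rank 5385 with 0.92, 1.13 and 0.60. Upstream, a summit 14 bp before UQCR-6.4, a gene of a subunit of mitochondrial complex III, and 31 bp before CG42239 was at rank 7189 with 0.91, 0.78 and 0.32. The TSS of Rab4 was 664 bp from it.

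The strongest summit within 5000 bp of Rab4 lay near the edge of the window, at position 17568625. It was 107 bp upstream of POSH, a scaffold protein and ubiquitin ligase of the IMD and JNK pathways, and 169 bp upstream of Ns2, a gene of the nucleostemin GTPase family. The relative signals were 3.89, 2.35 and 3.82 in replicates 1, 2 and 3 (rank 955, 3.35 ± 0.87, SD, n = 3). The lowest of these was above the highest of the Rab4 promoter, 1.42.

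Rab11 (FBgn0015790, chr3R:21111408-21116146, plus strand) had 1 optimal summit, in an intron 652 bp downstream of its TSS, with a signal of 221.2. The relative signal was 0.676 in replicate 1, 0.560 in replicate 2 and 0.299 in replicate 3, or 0.512 ± 0.193 (SD, n = 3). All 3 replicates were below the median of matched peaks, and replicate 3 had the peak at rank 15045 of its own list. In replicates 1 and 2 this peak was the strongest in the window, but in replicate 3, at 46.1, it was not. Stronger summits of replicate 3 lay 55 bp (53.2) and 1819 bp (57.8) downstream of the TSS. A further one (90.2) lay 3081 bp upstream of it and 119 bp upstream of the TSS of the neighbouring gene rtet. At the Rab11 TSS itself the pooled list had a summit 7 bp upstream, at signal 127.8 and rank 12923 of 30000, that is not in the optimal list. In all, Rab11 had 1 optimal and 5 pooled summits.

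Ras85D (FBgn0003205, chr3R:9510561-9513067, minus strand) had a summit 124 bp upstream of its TSS and 136 bp upstream of the divergent gene Rlb1. In replicate 1 the summit was nearer Rlb1 (109 bp) than Ras85D (151 bp), and in replicates 2 and 3 it was nearer Ras85D. Rlb1 and Ras85D thus cannot be told apart as the gene this summit belongs to. The relative signal was 0.703 in replicate 1, 0.746 in replicate 2 and 0.454 in replicate 3, or 0.634 ± 0.158 (SD, n = 3). Stronger summits lay at other neighbours of Ras85D. The strongest was 9 bp upstream of the TSS of transcript Kdm3-RB, at rank 1388 with 2.48, 2.85 and 2.27 in replicates 1, 2 and 3 (2.53 ± 0.29, SD, n = 3). Kdm3 encodes a histone H3 lysine demethylase, and CG8176 shares this TSS in the annotation.

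The lowest replicate at this Kdm3 summit was above the highest at Ras85D. A summit inside the 5′ UTR of Kdm3 and CG8176, and 200 bp upstream of mRpL47, a gene of a mitochondrial ribosomal protein, was at rank 4312 with 1.46, 1.31 and 0.82. Close by, a summit in an intron of the same genes was at rank 8390 and spread widely, at 0.23, 0.95 and 0.54. A summit 50 bp upstream of rump, which encodes an RNA-binding protein, was at rank 5525 with 0.73, 0.61 and 0.90.

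By mean relative signal the strongest peaks within 1000 bp of a TSS ran in the order Rabex-5, Rab5, Rab7, Rab4, Ras85D and Rab11. The ranges over replicates of Rabex-5, picked for the height of its peak, and Rab5 did not overlap. The lowest Rabex-5 value (37.5) was above the highest Rab5 value (3.24). Rab5 and Rab7 overlapped, as did Rab7 and Rab4, and in replicate 2 alone Rab7 (1.48) and Rab4 (1.42) were above Rab5 (1.28). Rab4 and Ras85D did not overlap, with 0.857 as the lowest of Rab4 and 0.746 as the highest of Ras85D. Ras85D and Rab11 overlapped. Within each replicate, however, Ras85D was above Rab11 and Rab7 was above Rab4 in all 3. The place of Rab5 among Rab5, Rab7 and Rab4 was not the same in every replicate.

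**Figure D3:**
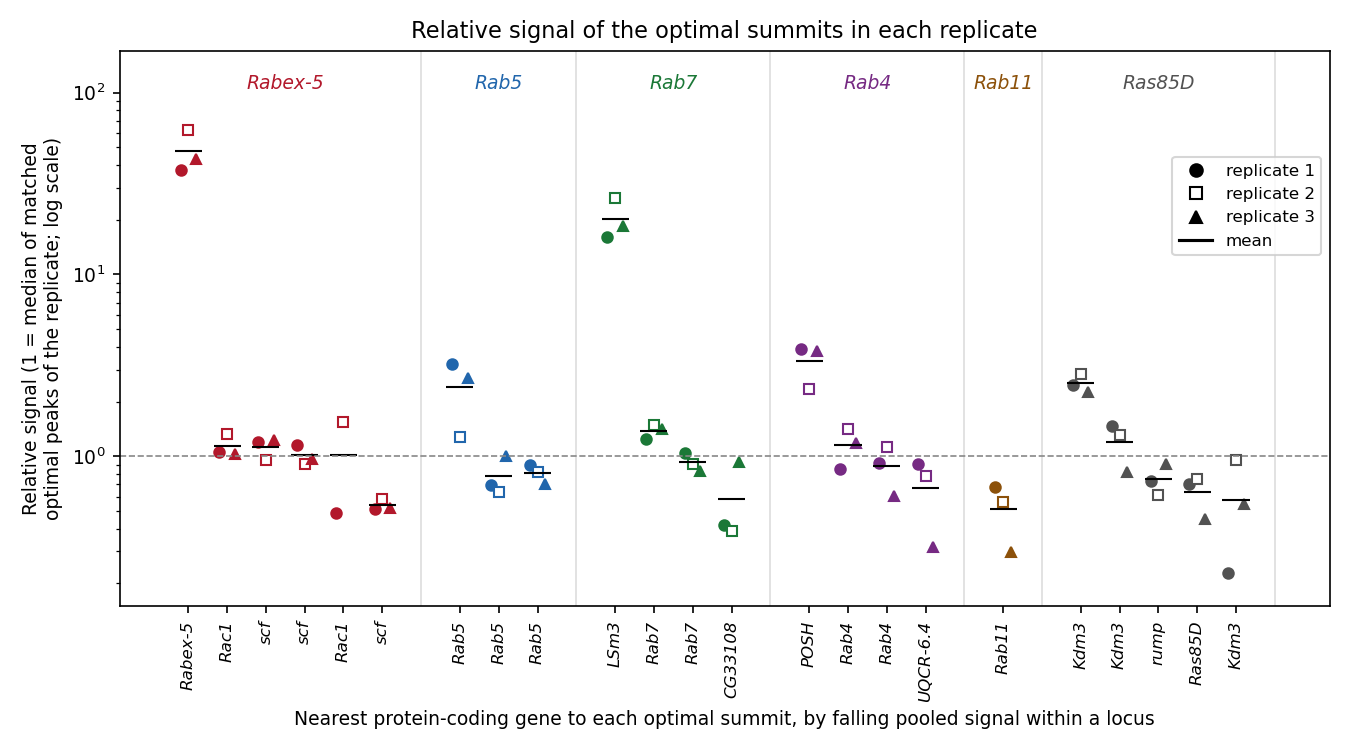
Relative signal of all 23 optimal summits in each replicate (log scale, 1 being the median of matched optimal peaks in that replicate), grouped by gene and labelled with the nearest protein-coding gene. Horizontal bars are means. The Rabex-5 promoter lies between 37.5 and 62.6, the LSm3 summit between 16.0 and 26.2, and no other summit reaches 4.

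Over the 22 summits matched in all 3 replicates, the median coefficient of variation of relative signal was 24.8%, against 23.3% over the 8511 such optimal summits. Matched replicate summits lay a median of 10 bp from the optimal summit (68 pairs, at most 88 bp), against 13 bp over all optimal summits. The precision of the set was therefore close to that of the list as a whole. By peak width, 8.07% of optimal peaks were at least as wide as the Rabex-5 promoter peak, and 97.6% were at least as wide as the Rab11 peak of 151 bp. The interval that holds the Rab7 promoter summit was wider than that of Rabex-5, but it holds a pair of summits.

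For 10 of the 23 summits the nearest protein-coding TSS was that of the listed gene, and for 13 it was that of a neighbour. Summits lay within 500 bp of a protein-coding TSS in 18 of 23 cases, against 47.8% of all optimal summits. All 6 windows were drawn around genes, and the part this has in the share was not tested. The number of optimal summits within 5000 bp was 6 at Rabex-5, 5 at Ras85D, 4 at Rab7, 4 at Rab4, 3 at Rab5 and 1 at Rab11. At least 1 such summit was present at 63.4% of protein-coding genes, and 5.70% of genes had 6 or more.

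The lists before the reproducibility step held more summits. The 6 windows held 36 summits in the pooled list, 46 in replicate 1, 41 in replicate 2 and 42 in replicate 3. At Rabex-5 the counts were 7, 9, 10 and 9 in that order, and the summit of the pooled list that is not in the optimal list had a signal of 37.1. Rab4 and Ras85D had none outside the optimal list, and Rab7 had 4, with signals of 34.0 to 98.5. For Rab11 the 4 such summits had signals of 88.6 to 183.2, and the strongest lay 8 bp upstream of the TSS of a neighbouring gene, ppan.

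The 5000 bp limit decided which neighbours were counted. For Rab4 the outermost summit inside it, the POSH summit, was 4837 bp from the gene, and the next outside, at 6540 bp, was at Dcr-2 (rank 4583). For Rabex-5 the limit fell between the Rac1 summit at 4277 bp and one at Nt5a at 8932 bp (rank 3232). For Ras85D it fell between the Kdm3 summit at 4035 bp and one at CG8149 at 5982 bp (rank 7156). Past the limit, the next summits were at CG5902 for Rab7 (6228 bp, rank 3361), CG3609 for Rab5 (9335 bp, rank 3675) and slmb for Rab11 (8410 bp, rank 8109). The strongest of these 6 summits outside the limit was that at Nt5a.

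Sequence within 100 bp of each summit was searched on both strands for a κB consensus, and for a relaxed form that lets the last positions be any pyrimidine. The κB consensus was found at 2 of 23 summits, against 7.80% of all optimal summits and 1.67% of windows 1000 bp away. Both were in the Rabex-5 locus. A share of 2 in 23 is 8.70%, which is near that of the whole list.

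At the Rabex-5 promoter the site GGGAAATCCCC (chr3L:1295791-1295801) was centred 49 bp upstream of the summit and held 2 overlapping matches, 1 on each strand. These are the capitals in the Rabex-5 sequence above. The same 11 bases occurred 115 times on the 6 chromosome arms searched, and 22 copies (19.1%) lay within 100 bp of an optimal summit. Those 22 ranged from rank 3, the Rabex-5 copy, to rank 9121, with a median rank of 2368.5. Identical sites thus lay close to summits of very different signal, and most copies were not within 100 bp of an optimal summit. The part the site has in the signal was not tested.

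The other κB match was in the 3′ UTR of Rac1, where the site GGGGAATCCCCC (chr3L:1301598-1301609) held 3 overlapping matches and was centred 11.5 bp from the summit. Of 56 copies of this site, 16 (28.6%) lay within 100 bp of an optimal summit, at ranks 778 to 8441. The Rac1 site lay closer to its summit than the Rabex-5 site. The relative signal was 1.14 at the Rac1 summit and 47.8 at the Rabex-5 promoter. The sites differ in sequence and in place, and the part a site has in the signal was not tested.

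Across the whole windows of the 6 genes there were 9 κB sites, overlapping matches being joined. Of these, 2 (22.2%) lay within 100 bp of an optimal summit, against 6.30% of the 12046 sites on the 6 arms. Both lay in the Rabex-5 locus, which was picked for its peak. That window held 0.477 optimal summits per kb, against a median of 0.0845 over all protein-coding genes. The part this has in the share was not tested. Rabex-5 had 3 sites, and the third, in its coding exon, was 263 bp from the promoter summit. Rab5 had 2, Rab7 had 2, Rab4 and Rab11 had 1 each and Ras85D had 0. A site in the coding exon of Epp lay 286 bp from the Rab7 promoter summit, and the Rab5, Rab4 and Rab11 sites all lay more than 1000 bp from an optimal summit.

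The strongest peaks within 1000 bp of a TSS of Rab5, Rab7, Rab4, Rab11 and Ras85D thus had no match to this κB consensus within 100 bp of the summit, which says only that these letters are not in that window. The relaxed form added 1 summit, in the Rab5 intron at rank 5998 (chr2L:2362228-2362237), for 3 of 23 against 20.6% of all optimal summits. The LSm3 summit at rank 45 held neither form, nor any other motif searched.

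The DRE, a motif of housekeeping promoters, was at 2 of 23 summits, against 3.35% of all optimal summits and 0.563% of windows 1000 bp away. One was in the Rab7 promoter, centred 9.5 bp from the summit, and the other upstream of CG33108 in the same locus, 56.5 bp from its summit. Ohler1, another housekeeping promoter motif, was at 1 summit, between UQCR-6.4 and CG42239, against 2.20% of all. The E-box CACGTG was at 1, the strongest Rab5 summit (chr2L:2363833-2363838, 91.5 bp from it), against 2.72% of all. The motif of GATA factors, TGATAA or the same with A first, was at 8 of 23 against 31.7%, and GAGAG was at 8 of 23 against 29.0%. The median GC content of the 23 windows was 40.8%, against 43.3% over all.

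For each gene the peaks of most similar relative signal over the 3 replicates were found among 8510 others. The measure is the distance on the log2 scale, where 0 is the same value in every replicate. Closest to Rabex-5 were TTLL4A, a gene of the tubulin ligase-like family (0.0965, rank 4), and CG42788 (0.139, rank 1). TTLL4A had relative signals of 35.9, 61.7 and 41.3 in replicates 1, 2 and 3, so replicate 2 was its highest as well. Closest to Rab5, with replicate 2 as the lowest, were CG6770 (0.138) and moody (0.149). For Rab7 these were peaks nearest Eip63F-1 and Jhbp6, for Rab4 CG4020 and Ufd1, for Rab11 Zip102B and Pmvk, and for Ras85D CG11089 and CG10657, at 0.0425 to 0.241.

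The same promoter count was made for 124 other genes in 8 lists of endosome and Ras pathway function. A summit within 1000 bp of a TSS was present for 76 (61.3%), against 37.9% of all protein-coding genes, and the median rank of their strongest peaks was 3017, against 3782.5 over all protein-coding genes other than the 6. None was in the top 100 of the list, where Rabex-5, picked for the height of its peak, was at rank 3. Some of these summits lay far from the TSS, as at Vps39 (886 bp) and Gapvd1 (931 bp), while 65 of the 124 genes had one within 500 bp. Other genes near these summits are not given here, so a peak may be that of a neighbour. The lists were chosen with earlier results known and were not tested. A κB match lay at 6 of these 76 peaks, against 6.47% of the strongest promoter peaks of all genes.

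Among other Rab GTPases 13 of 24 had a peak. Rab8, of the exocytic route, was the highest (rank 483, relative signal 5.64 ± 0.50, SD, n = 3), followed by Rab2 (2.46 ± 1.03) and Rab19 (2.17 ± 0.52). The mean of Rab8 was above that of Rab5, and all 13 peaks were below that of Rabex-5. Of other regulators of the Rab cycle 8 of 21 had a peak (38.1%), which is close to the share over all genes. The highest were Gdi, the GDP dissociation inhibitor that extracts Rabs from membranes (rank 1036, 3.20 ± 0.41, SD, n = 3), and GAPcenA (rank 1368) and Gapvd1 (rank 2256). Rabex-5, at rank 3, was above every one of the 8 by rank. Its place above these 8 and above the 13 Rab peaks follows from its choice by peak height.

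The counts of the lists that follow are to be read beside the 37.9% of all protein-coding genes that had a peak. Genes that act with Rab5 at the early endosome had a peak in 9 of 10 cases. Syx13, an endosomal syntaxin, was the highest (rank 207, 9.65 ± 2.92, SD, n = 3), ahead of Rbsn-5, the Rab5 effector Rabenosyn-5 (rank 1747), and Vps45, its partner in membrane fusion (rank 2438). The list of CORVET and HOPS tethers, which act with Rab5 and Rab7, also took in Vps16B and Vps33B, homologues of tether subunits. It had a peak in 4 of 9 genes (44.4%). The highest were Vps39 (rank 340, 7.13 ± 0.34, SD, n = 3), Vps8 (rank 913) and Vps33B (rank 1445). ESCRT genes, which sort ubiquitinated cargo, had 12 of 18, led by CHMP2B (rank 676), Chmp1 (rank 1201) and Vps60 (rank 1307), and a κB match lay at 4 of these 12 peaks, against 6.47% of the strongest promoter peaks of all genes. Those 4 were CHMP2B, Chmp1, ALiX and mop, of which ALiX and mop were named after their values were seen.

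Genes of retromer and recycling had a peak in 8 of 11 cases, led by Rip11, a Rab11 effector (rank 579), Snx3 (rank 1011) and Vps26 (rank 1908), a retromer subunit whose peak had a κB match. Rab11 itself was at rank 8291. Endocytosis genes had 9 of 14, led by Chc, the clathrin heavy chain (rank 518, 5.53 ± 1.01, SD, n = 3), Dap160 (rank 1371) and aux (rank 1586). Their only κB match was at Clc, the clathrin light chain, a gene named after its values were seen. Ras-MAPK genes had 13 of 17, led by the kinases Raf (rank 306, 7.66 ± 0.61, SD, n = 3) and Dsor1 (rank 738) and the adaptor drk (rank 1498). Each of these 3 ranked above Ras85D, the GTPase upstream of Raf, at 7495.

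**Figure D4:**
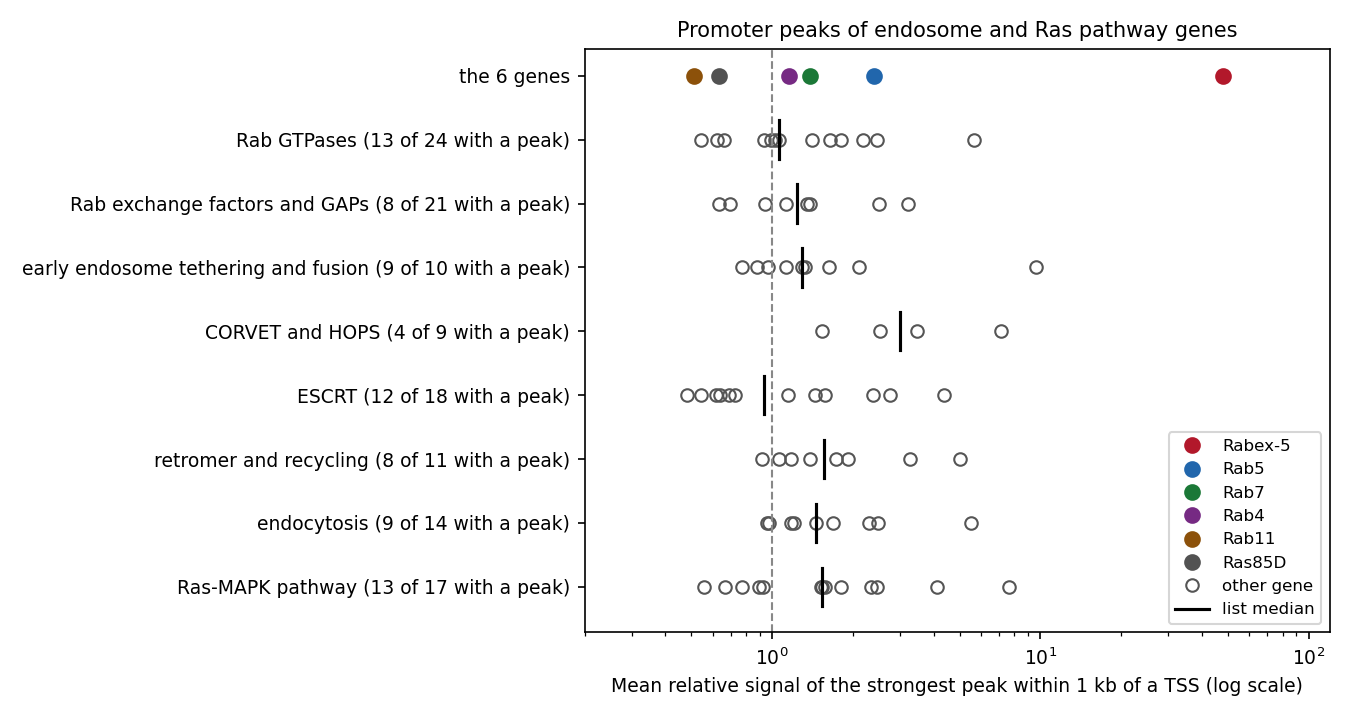
Mean relative signal (log scale) of the strongest peak within 1 kb of a TSS, for the 6 genes (top row, coloured) and for the genes of 8 lists that had such a peak (open circles, with the count in each label). Black ticks are list medians and the dashed line is 1. Rabex-5 lies at 47.8, and the highest of the others, Syx13, at 9.65.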

How the data were processed

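Chromatin immunoprecipitation sequencing was analysed from 3 replicates. Per the file headers deposited with each sample, the authors called peaks on dm6 in each replicate and on all 3 alignments together, each with a control, and derived the optimal list from them. The sources used here do not name the aligner, the caller or the reproducibility threshold. The deposited signal of a peak is on the caller's scale, and the deposited −log10 q-value is a single value (4.43) in the optimal list, so peaks were ranked by signal. Depth is unknown, which leaves counting error unmeasured.

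Genes and TSSs came from Ensembl release 115 and sequence from RefSeq release 6, read with Python 3.11.15, pandas 2.3.3 and numpy 2.4.6. The matching of summits and the search for the κB consensus were tested on simulated data. A gene with several summits within 1000 bp of a TSS was given the one of highest signal. Replicate numbers are those of the labels. The 6 genes and the lists were chosen with earlier results of these data known, and no test was made. Of 134 list entries, 126 matched by symbol, 5 by older name (1 of them a repeat) and 3 not at all. The text names the 6 genes, genes with a TSS within 1000 bp of their summits, up to 3 genes of highest signal per list, the 2 most similar peaks per gene and the summits next inside and outside 5000 bp.

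Alternatives changed distances, matching, scaling, motif window and form, peak list and replicates.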

Additional observations from a re-analysis of the deposited data

How the results depend on the processing

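With TSSs within 500 bp, 5 of the 6 genes had an optimal summit and Rab11 did not, against 33.5% of all genes. The count was 6 within 5000 bp, by nearest TSS, with all pooled peaks and without each replicate in turn. The shares of all genes were 58.2%, 28.5%, 53.6% and 36.1 to 36.4% in that order. The number of summits near the genes was 16 within 1000 bp and 31 within 10000 bp, and 22 to 23 without single replicates, against 23. Dividing by the median of all peaks of a replicate, most of which are weaker, moved relative signal to 163 at Rabex-5, 8.12 at Rab5, 4.70 at Rab7, 3.93 at Rab4, 1.75 at Rab11 and 2.17 at Ras85D, in the same order of genes. Without single replicates it was 40.5 to 53.0 at Rabex-5, 1.98 to 2.96 at Rab5, 1.33 to 1.45 at Rab7, 1.02 to 1.30 at Rab4, 0.430 to 0.618 at Rab11 and 0.578 to 0.724 at Ras85D. Within 50 bp of the summit 1 of the 2 κB matches was left, at Rac1, since the Rabex-5 site reaches past that distance, and within 250 bp there were 2. Of the 124 list genes, 65 (52.4%) had a peak within 500 bp, 81.5% within 5000 bp and 74 (59.7%) without each replicate. The shares of all genes were 33.5%, 58.2% and 36.1 to 36.4% in that order. In the top 50% of peaks there were 51 list genes (41.1%, against 22.9% of all genes). No paired analysis was possible because there is a single group. The signals cover 3 replicates of whole larvae and unknown depth, and no control library was analysed.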

Other observations

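Several list genes that bear directly on the 6 genes had promoter peaks of low or middle rank and are given as values. They were chosen after their values were seen. Mon1 and Ccz1, which form the exchange factor of Rab7, had relative signals of 1.39 ± 0.20 and 0.634 ± 0.193 (SD, n = 3 each). The gene spri, a homologue of the mammalian RIN exchange factors for Rab5, had 0.940 ± 0.118 (SD, n = 3). Each of these means was below the lowest replicate of Rabex-5, 37.5, a gene picked for the height of its peak. Syx7, an early endosomal syntaxin, had 1.12 ± 0.35, and dor, the Vps18 subunit of the tethers, 1.54 ± 0.35 (SD, n = 3 each). Upstream of Ras85D in the Ras pathway, Sos, its exchange factor, had 0.891 ± 0.090 (SD, n = 3).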
